A study of Saccharomyces cerevisiae with 6 samples.

Results

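The 10 genes described here encode steps of the pentose phosphate pathway of budding yeast, Saccharomyces cerevisiae, and 8 of them form 4 pairs of paralogs, that is, related genes whose products catalyse the same reaction. The pairs are SOL4 with SOL3, GND2 with GND1, TKL2 with TKL1 and NQM1 with TAL1, and ZWF1 and RKI1 are the 2 genes without a partner in the set. They were taken by gene name from the non-control probes of a yeast oligonucleotide array, NQM1 by its systematic name YGR043C, and make up 10 of 6256 gene probes. All 10 entered the tests, as did 6232 of the 6256 probes, a probe being tested when the scanner software marked the mutant or the WT signal as well above background on 2 or more arrays. The copies of a pair lie apart in the genome by their systematic names, SOL4 (YGR248W), GND2 (YGR256W) and NQM1 (YGR043C) all being on the right arm of chromosome VII, and SOL3 (YHR163W) and GND1 (YHR183W) on that of chromosome VIII.

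The pathway branches off glycolysis at glucose 6-phosphate. Its oxidative arm, run by Zwf1, the 6-phosphogluconolactonases Sol3 and Sol4 and the 6-phosphogluconate dehydrogenases Gnd1 and Gnd2, yields NADPH for biosynthesis and for defence against oxidants. Its non-oxidative arm, run by ribose-5-phosphate isomerase (Rki1), ribulose-5-phosphate epimerase (Rpe1), transketolase (Tkl1, Tkl2) and transaldolase (Tal1, Nqm1), makes ribose 5-phosphate for nucleotides and returns surplus carbon to glycolysis. In yeast growing on glucose, Gnd1, Tkl1 and Tal1 are known as the major enzymes of their pairs.

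RNA came from 4 strains, each described by the labels as strain AY138 carrying a plasmid after selection on FOA. The TBP-F207L and TBP-Y185C strains carry pTBP-F207L and pTBP-Y185C, plasmids for variants of the TATA-binding protein (TBP, encoded by SPT15) with which cells can live without Mot1, the ATPase that takes TBP off DNA. They are called bypass strains here, after the labels. The mot1-14 mutant carries pMOT244, and the wild-type MOT1 strain (WT) carries pAV20. The chromosomal genotype shared by the 4 strains is not given in the sources used here. Cultures in YPD, which is rich in glucose, were kept at 30 °C and harvested at an optical density of 1.0. Each mutant was hybridised against WT on 2 arrays, with the mutant in Cy5 on array 1 and in Cy3 on array 2. The labels do not state whether the arrays of a mutant had RNA of separate cultures. The p-values therefore speak of array-to-array spread, which may be technical. WT, present on every array, counts as 1 control sample whose own spread is left out. As the RNA was from whole cultures, a difference in the share of cells that express a gene and one in RNA per cell cannot be told apart. The 6 arrays lay on 3 slides of 1 mutant each, so slide and mutant cannot be told apart.

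Typical spots were bright: array medians ran from 8.05 to 22.7 times the local background in red and from 6.74 to 10.8 times in green. Across genes, the 2 arrays of a mutant correlated at r = 0.94 for TBP-F207L, 0.96 for TBP-Y185C and 0.93 for mot1-14. SPT15 RNA was higher than in WT by 3.63 (log2) in TBP-F207L and by 4.08 in TBP-Y185C, and was at -0.36 in mot1-14. MOT1 RNA was at -1.74 and -3.41 on the TBP-F207L arrays, at -3.73 and -3.28 on the TBP-Y185C arrays and at 2.24 and 2.11 on the mot1-14 arrays. Array 1 of TBP-F207L thus stood apart for MOT1. The change was smaller on array 1 than on array 2 for 8 of the 10 pathway genes in TBP-F207L, 5 in TBP-Y185C and 7 in mot1-14. Values without array 1 of TBP-F207L are given below.

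In all 3 mutants RNA of the 5 genes of the oxidative arm rose, more for SOL4 and GND2 than for their paralogs SOL3 and GND1. NQM1 rose most of the 10 in every mutant while its paralog TAL1 fell in both bypass strains, and RKI1 fell in all 3. All 10 genes differed from WT in every mutant at an adjusted p under 0.05 in limma's linear model. In TBP-F207L 8 were higher and 2 lower, where 79.1% of all 6232 probes passed, 40.3% as higher and 38.8% as lower. In TBP-Y185C 8 were higher and 2 lower, where 79.7% passed, 41% as higher and 38.8% as lower. In mot1-14 9 were higher and 1 lower, where 72.1% passed, 37.2% as higher and 34.9% as lower. With so many probes past the threshold, passing it says little about any gene set, and the sizes carry more. The median log2 ratio (mutant over WT) of the 10 genes was 0.84 in TBP-F207L, 0.86 in TBP-Y185C and 0.74 in mot1-14. Over all probes the median size of a change, in either direction, was 0.28, 0.29 and 0.23 in the same mutants, and the signed medians lay within 0.0059 of 0. By 2-fold or more, 3 of the 10 were higher in TBP-F207L (SOL4, GND2 and NQM1; 4.97% of all probes), 4 in TBP-Y185C (the same 3 and ZWF1; 6.42%) and 3 in mot1-14 (SOL4, GND2 and NQM1; 4.44%). In the other direction 0 of the 10 were lower by that much, where 2.34%, 1.96% and 0.594% of all probes were in TBP-F207L, TBP-Y185C and mot1-14.

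**Figure D1:**
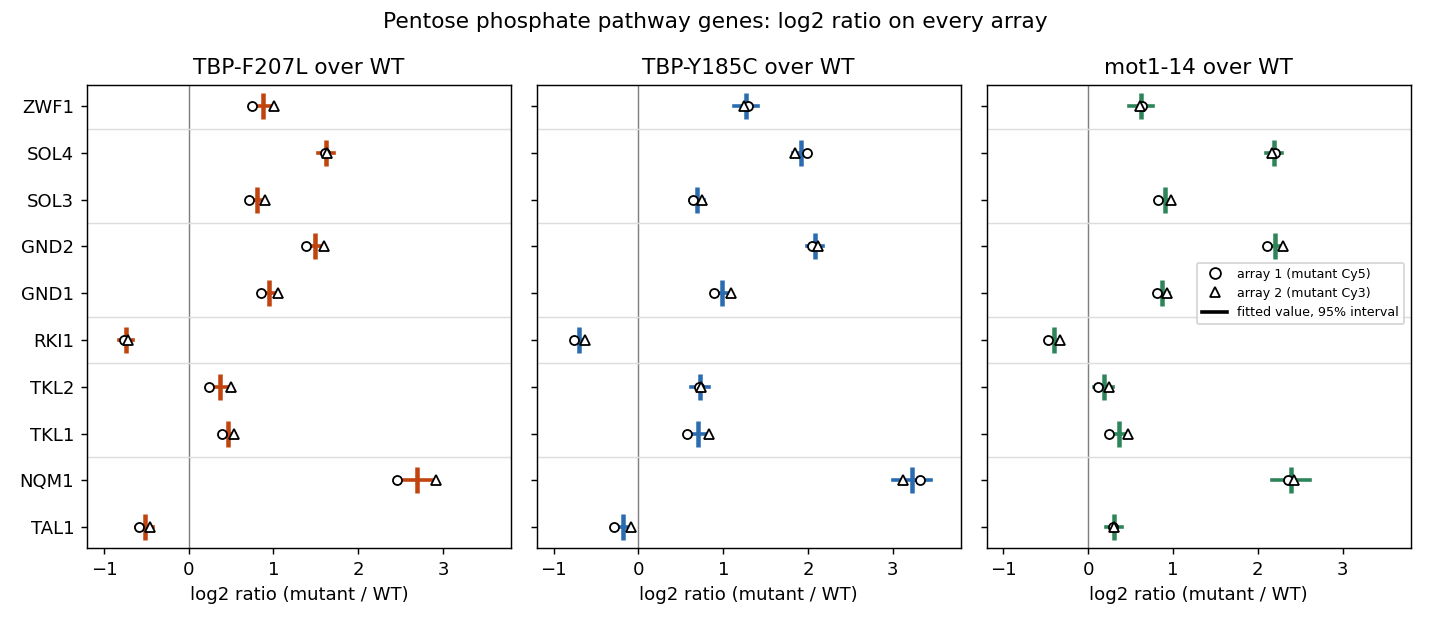
Log2 ratio (mutant over WT, horizontal axis) of the 10 genes on each array, with 1 panel per mutant and the paralogs of a pair next to each other. Circles are array 1, triangles array 2, vertical ticks the fitted value and horizontal lines its 95% interval. SOL4, GND2 and NQM1 stand farthest to the right in every panel, with NQM1 at 2.69 in TBP-F207L, 3.22 in TBP-Y185C and 2.39 in mot1-14, and RKI1 lies left of 0 in all 3.

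ZWF1 encodes glucose-6-phosphate dehydrogenase, which starts the oxidative arm and makes its first NADPH. Its log2 ratio was 0.74 and 1.01 on the TBP-F207L arrays, 1.30 and 1.24 on the TBP-Y185C arrays, and 0.63 and 0.61 on the mot1-14 arrays. All 6 arrays had more ZWF1 RNA in the mutant than in WT, and both TBP-Y185C arrays lay above all others. The fitted log2 ratios were 0.88 in TBP-F207L, 1.27 in TBP-Y185C and 0.62 in mot1-14, each with an SE of 0.06. They amount to a rise of 1.84-fold, 2.41-fold and 1.54-fold, with adjusted p-values of 8.7e-06, 1.4e-06 and 6.0e-05. TBP-Y185C exceeded mot1-14 by 0.65 (log2, adjusted p = 0.00104).

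SOL4 and SOL3 encode 6-phosphogluconolactonases, which hydrolyse the product of Zwf1. The SOL4 signal, on the background-corrected and loess-normalized scale, was 1027 and 906 in TBP-F207L against 337 and 292.5 in WT on the same arrays. In TBP-Y185C it was 1211 and 866 against 304 and 241 in WT, and in mot1-14 1096 and 996 against 238 and 221 in WT. Every mutant value thus lay above every WT value of SOL4. The log2 ratios were 1.61 and 1.63 in TBP-F207L, 1.99 and 1.85 in TBP-Y185C, and 2.21 and 2.17 in mot1-14. SOL4 rose 3.07-fold in TBP-F207L, 3.78-fold in TBP-Y185C and 4.56-fold in mot1-14, with an SE of 0.04 (log2) and adjusted p-values of 1.8e-07, 1.2e-07 and 1.2e-07. The deposited log ratios gave larger changes for SOL4, at 1.82, 2.14 and 2.46 (log2) in the same mutants.

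SOL3 rose less than SOL4 in each mutant. Its log2 ratios were 0.72 and 0.90 in TBP-F207L, 0.64 and 0.75 in TBP-Y185C, and 0.82 and 0.98 in mot1-14, which is 1.75-fold, 1.62-fold and 1.87-fold in the fit (SE 0.03). The range of its 6 values is smaller than the gap that separates them from any value of SOL4. The log2 ratio of SOL4 exceeded that of SOL3 by 0.81 in TBP-F207L (95% interval 0.70 to 0.92, adjusted p = 4.6e-06), by 1.23 in TBP-Y185C (1.12 to 1.34, adjusted p = 6.9e-07) and by 1.29 in mot1-14 (1.18 to 1.40, adjusted p = 9.9e-07). This excess was smaller in TBP-F207L than in TBP-Y185C by 0.42 (adjusted p = 0.00452) and than in mot1-14 by 0.48 (adjusted p = 0.00106). Between TBP-Y185C and mot1-14 it differed by -0.06, with a 95% interval of -0.22 to 0.10.

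GND2 and GND1 encode 6-phosphogluconate dehydrogenases, which make the second NADPH of the oxidative arm. The GND2 signal was 981 and 956 in TBP-F207L against 375 and 317 in WT, 1665 and 1297 in TBP-Y185C against 402 and 299 in WT, and 1123 and 1248 in mot1-14 against 260 and 254 in WT. As with SOL4, no mutant value reached down to a WT value. The log2 ratios were 1.39 and 1.59 in TBP-F207L, 2.05 and 2.12 in TBP-Y185C, and 2.11 and 2.29 in mot1-14. GND2 rose 2.81-fold in TBP-F207L, 4.24-fold in TBP-Y185C and 4.60-fold in mot1-14 (SE 0.04 on the log2 scale, adjusted p = 2.1e-07, 8.6e-08 and 1.0e-07).

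GND1, the copy known to carry most of the enzyme activity, rose close to 2-fold in every mutant in the main fit. Its log2 ratios were 0.85 and 1.055 in TBP-F207L, 0.89 and 1.09 in TBP-Y185C, and 0.81 and 0.92 in mot1-14, with fitted changes of 1.94-fold, 1.98-fold and 1.82-fold (SE 0.03). With arrays centred on their median without loess, GND1 stood at 0.62 in TBP-F207L, 0.85 in TBP-Y185C and 0.78 in mot1-14 (log2). No difference in GND1 between mutants passed the test, and the largest was 0.12 (TBP-Y185C minus mot1-14, 95% interval 0.00 to 0.24, adjusted p = 0.0809). The log2 ratio of GND2 exceeded that of GND1 by 0.54 in TBP-F207L (95% interval 0.41 to 0.66, adjusted p = 7.3e-05), 1.10 in TBP-Y185C (0.97 to 1.22, adjusted p = 1.9e-06) and 1.34 in mot1-14 (1.21 to 1.46, adjusted p = 1.4e-06). The excess in TBP-F207L was smaller than in TBP-Y185C by 0.56 (adjusted p = 0.00261) and than in mot1-14 by 0.80 (adjusted p = 0.000227). That in TBP-Y185C was smaller than in mot1-14 by 0.24 (adjusted p = 0.0369). As for the other pairs, these differences of the excess between mutants were tested in the main fit only. With median centring the excess itself was 0.97 in TBP-F207L, 1.36 in TBP-Y185C and 1.40 in mot1-14. Probe sequences were not used here, and cross-hybridisation between the copies of a pair was not tested.

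**Figure D2:**
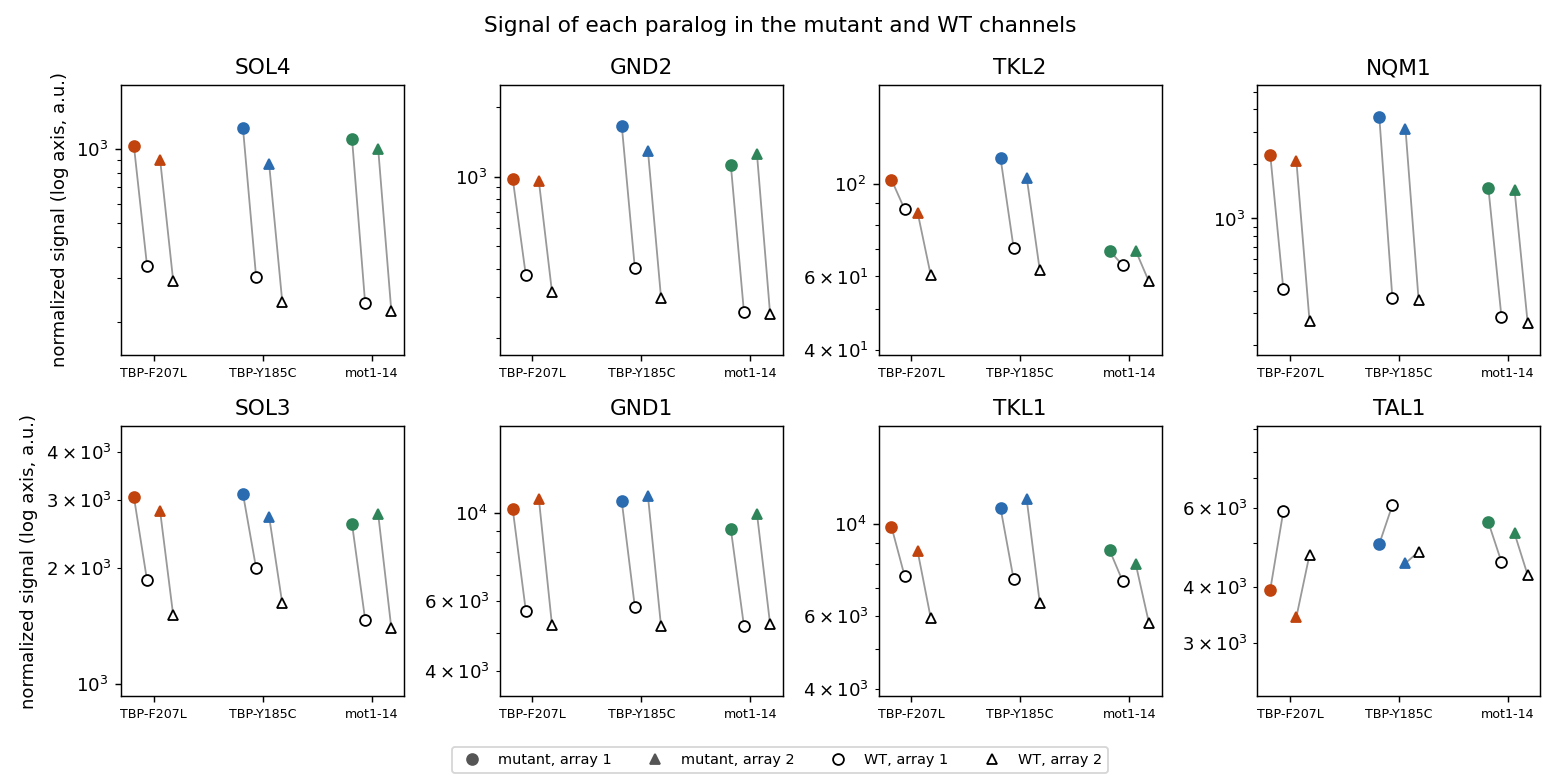
Normalized signal (log axis, arbitrary units; each panel has its own range) of the 8 paired genes in the mutant channel (filled) and the WT channel (open) of each array, joined by a line per array. For SOL4, GND2 and NQM1 every mutant symbol lies above every WT symbol, TAL1 lines run upward to WT in TBP-F207L and TBP-Y185C, and TKL2 signals stay between 58.4 and 116.

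RKI1, which encodes the isomerase that turns ribulose 5-phosphate into ribose 5-phosphate, was the member that fell in all 3 mutants. Its log2 ratio was -0.76 and -0.71 in TBP-F207L, -0.77 and -0.64 in TBP-Y185C, and -0.47 and -0.34 in mot1-14. WT was thus brighter than the mutant on all 6 arrays. The fitted values were -0.73 in TBP-F207L, -0.70 in TBP-Y185C and -0.40 in mot1-14 (SE 0.03), a fall of 1.66-fold, 1.63-fold and 1.32-fold, with adjusted p-values of 1.8e-06, 2.0e-06 and 4.0e-05. Both bypass strains lay below mot1-14, TBP-F207L by 0.33 (adjusted p = 0.00136) and TBP-Y185C by 0.30 (adjusted p = 0.00289). Under median centring neither gap passed (adjusted p = 0.0864 and 0.298), and without the dye term that of TBP-Y185C did not (adjusted p = 0.0662).

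TKL1 encodes the main transketolase, which moves carbon units between sugar phosphates. Its log2 ratio was 0.39 and 0.53 in TBP-F207L, 0.57 and 0.83 in TBP-Y185C, and 0.25 and 0.47 in mot1-14. The ranges of TBP-F207L and mot1-14 overlap, while TBP-Y185C lies above both. TKL1 rose 1.38-fold in TBP-F207L, 1.62-fold in TBP-Y185C and 1.28-fold in mot1-14 (SE 0.04 on the log2 scale, adjusted p = 1.9e-05, 2.3e-06 and 8.7e-05). When arrays were centred on their median without loess, TKL1 in TBP-F207L stood at 0.13 and did not pass (adjusted p = 0.132).

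TKL2, the minor transketolase gene, was the dimmest of the 10. Before background correction its spots were at 1.62 to 4.51 times the local background in the mutants and at 1.26 to 2.16 times in WT, while WT spots of the other 9 genes were at 5.10 times or more. In WT it was not well above background on either array of the TBP-Y185C pair and of the mot1-14 pair, so only a bound can be given there. On the scale with the offset, the WT signal of TKL2 lay above the lowest signal marked well above background. The bound therefore equals the fitted ratio and leaves its spread out. It was 1.66-fold in TBP-Y185C over WT (log2 0.73, 95% interval 0.62 to 0.84, adjusted p = 6.1e-06) and 1.13-fold in mot1-14 over WT (log2 0.18, 95% interval 0.07 to 0.29, adjusted p = 0.00940). In TBP-F207L, where the scanner marked WT as well above background although array 2 had it at only 1.26 times, the log2 ratio was 0.37 with an SE of 0.05, or 1.29-fold (adjusted p = 0.000227). These sizes belong to this scale and are not lower limits on every other scale. With offset 0 the TKL2 log2 ratio was 1.25 in TBP-F207L, 2.35 in TBP-Y185C and 0.94 in mot1-14, in the deposited values it was 2.003, 3.34 and 1.61, and under median centring 0.06, 0.47 and 0.18. The call in mot1-14 was lost without the dye term (adjusted p = 0.0900) and without either mot1-14 array (log2 0.17 and 0.19). That in TBP-F207L was lost under median centring (log2 0.06, adjusted p = 0.527).

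How far TKL2 exceeds TKL1 depends on how the background is handled. With the offset of 50 that was added to every signal, the log2 ratio of TKL2 minus that of TKL1 was -0.09 in TBP-F207L (95% interval -0.25 to 0.06, adjusted p = 0.228), 0.03 in TBP-Y185C (-0.13 to 0.19, adjusted p = 0.686) and -0.18 in mot1-14 (-0.33 to -0.02, adjusted p = 0.0469). With an offset of 0 the differences were 0.80 in TBP-F207L, 1.67 in TBP-Y185C and 0.61 in mot1-14, of which the TBP-F207L and TBP-Y185C values passed (adjusted p = 0.0359 and 0.00310). With the deposited log ratios, whose background was subtracted by the scanner software, they were 1.53, 2.60 and 1.24 in the same mutants, and all 3 passed (adjusted p = 0.00220, 0.000461 and 0.00460). An offset draws the ratios of dim spots towards 0 by its construction, and TKL2 spots had corrected signals of 58.4 to 116 with the offset included. In the deposited values, a TKL2 spot's own p under the scanner's error model ranged from 2.8e-09 in TBP-Y185C to 0.653 in mot1-14. In TBP-Y185C all 4 TKL2 spots had such a p of 6.6e-05 or less.

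TAL1 and NQM1 encode transaldolases, and they differed from WT in opposite directions in both bypass strains. TAL1 had log2 ratios of -0.58 and -0.46 in TBP-F207L, -0.29 and -0.08 in TBP-Y185C, and 0.29 and 0.31 in mot1-14. The 3 mutants do not overlap, and mot1-14 is alone above 0. In the fit TAL1 fell by 0.52 in TBP-F207L, which is 1.43-fold (adjusted p = 2.0e-05), and by 0.19 in TBP-Y185C, which is 1.14-fold (adjusted p = 0.00437). It rose by 0.30 in mot1-14, which is 1.23-fold (adjusted p = 0.000433), and the SE was 0.04 in each mutant. The small fall in TBP-Y185C was lost without array 1 of that strain (log2 -0.12, adjusted p = 0.137) and without the dye term (adjusted p = 0.0503).

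NQM1 had signals of 2246 and 2062 in TBP-F207L against 409 and 273 in WT, 3625 and 3121 in TBP-Y185C against 364 and 358 in WT, and 1474 and 1434 in mot1-14 against 287 and 267 in WT. Its WT spots were 6.37 to 8.95 times the local background, so the ratios rest on measured signal in both strains. The log2 ratios were 2.46 and 2.92 in TBP-F207L, 3.32 and 3.12 in TBP-Y185C, and 2.36 and 2.42 in mot1-14. The fitted changes were 6.44-fold, 9.32-fold and 5.25-fold in these mutants (SE 0.09 on the log2 scale), which ranked NQM1 8th, 6th and 12th from the top of 6232 probes. The log2 ratio of NQM1 exceeded that of TAL1 by 3.21 in TBP-F207L (95% interval 2.95 to 3.47, adjusted p = 5.4e-07), 3.41 in TBP-Y185C (3.15 to 3.67, adjusted p = 3.5e-07) and 2.09 in mot1-14 (1.83 to 2.35, adjusted p = 4.0e-06). The excess was larger in TBP-F207L than in mot1-14 by 1.12 (adjusted p = 0.00102) and in TBP-Y185C than in mot1-14 by 1.31 (adjusted p = 0.000788). Between the bypass strains it differed by -0.20, with a 95% interval of -0.57 to 0.17.

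**Figure D3:**
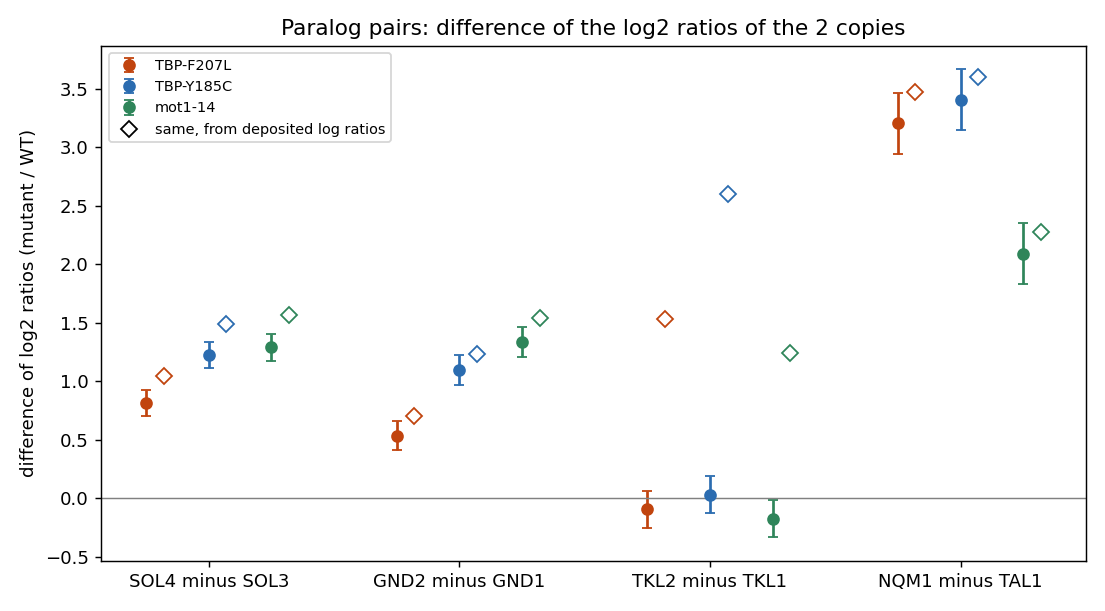
Difference between the log2 ratios (mutant over WT) of the 2 genes of each pair, for the 3 mutants. Filled circles with bars are fitted values with 95% intervals, and open diamonds the same difference from the deposited log ratios. Circles and diamonds lie above 0 in all mutants for the SOL, GND and NQM1 with TAL1 pairs, whereas for TKL2 minus TKL1 the circles lie between -0.18 and 0.03 and the diamonds between 1.24 and 2.60.

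Without array 1 of TBP-F207L, all 10 genes kept their direction in that strain and passed. NQM1 and ZWF1 moved most, to 2.95 and 1.03 on the log2 scale, against 2.69 and 0.88 with both arrays. SOL4 was then at 1.68, GND2 at 1.53, GND1 at 0.98, SOL3 at 0.83, TKL2 at 0.46, TKL1 at 0.41, TAL1 at -0.51 and RKI1 at -0.78. The pair differences in TBP-F207L were 0.84 for SOL4 over SOL3, 0.55 for GND2 over GND1, 3.46 for NQM1 over TAL1 and 0.05 for TKL2 over TKL1. The first 3 passed and the TKL difference did not (adjusted p = 0.614).

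The mutants were compared with each other through the WT they share, so their changes are not independent of one another. Between TBP-F207L and TBP-Y185C, 7 of the 10 genes were lower in TBP-F207L, 3 did not pass and 0 were higher, where 37.2% of all probes passed, 21.8% as lower and 15.4% as higher. Of the paired genes, the gap was 0.59 for GND2 (lower in TBP-F207L, adjusted p = 0.000931), 0.53 for NQM1 (adjusted p = 0.0217), 0.36 for TKL2 (adjusted p = 0.00648), 0.33 for TAL1 (adjusted p = 0.00573), 0.30 for SOL4 (adjusted p = 0.00765) and 0.24 for TKL1 (adjusted p = 0.0123), and for ZWF1 it was 0.39 (adjusted p = 0.0111). The genes that did not pass were SOL3, GND1 and RKI1. Several gaps were smaller without array 1 of TBP-F207L. TBP-F207L minus TBP-Y185C was then -0.27 for NQM1, -0.24 for ZWF1, -0.24 for SOL4 and -0.27 for TKL2. It was -0.55 for GND2, -0.33 for TAL1 and -0.285 for TKL1, each resting on 1 array of TBP-F207L. Without array 1 of TBP-Y185C 2 of the 7 calls were left, those of GND2 and TAL1, and the NQM1 gap shrank to 0.31 (adjusted p = 0.161). Without the dye term 0 of the 7 passed, GND2 coming nearest (adjusted p = 0.0532), and with offset 0 only SOL4, GND2 and TAL1 did.

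Between TBP-F207L and mot1-14, 2 genes were higher in TBP-F207L, 4 lower and 4 did not pass, where 57.8% of all probes passed, 28.8% as higher and 29% as lower. Those lower were TAL1 (by 0.82), GND2 (by 0.71), SOL4 (by 0.57) and RKI1. The higher ones were ZWF1, by 0.25 (adjusted p = 0.0333), and TKL2, by 0.19 (adjusted p = 0.0431). The ZWF1 call passed in 6 of 14 alternatives and the TKL2 call in 4 of 13. NQM1 was at 0.30 (adjusted p = 0.0972). It was at 0.56 without array 1 of TBP-F207L and at 0.03 without array 2, each resting on 1 array of that strain. Between TBP-Y185C and mot1-14, 4 genes were higher in TBP-Y185C, 4 lower and 2 did not pass, where 49.1% of all probes passed, 25.7% as higher and 23.4% as lower. The higher ones were NQM1 (by 0.83, adjusted p = 0.00263), ZWF1, TKL1 (by 0.34, adjusted p = 0.00197) and TKL2. Since TKL2 over WT is a bound in both strains, its gap has no settled size, at 0.55 with offset 50, 1.41 with offset 0 and 1.72 in the deposited values (adjusted p = 0.000789, 0.0297 and 0.0128). The lower ones were TAL1 (by 0.49, adjusted p = 0.000820), RKI1, SOL4 (by 0.27, adjusted p = 0.00742) and SOL3 (by 0.21, adjusted p = 0.0107). Of the lower calls, TAL1 alone passed under median centring and without the dye term, and TKL1 passed under neither. SOL4 and SOL3 also lost their calls without array 2 of TBP-Y185C or array 2 of mot1-14, and SOL3 without array 1 of mot1-14, with adjusted p-values of 0.0566 to 0.0839 in these fits. GND2 did not differ by the test between TBP-Y185C and mot1-14 (-0.12, 95% interval -0.25 to 0.01, adjusted p = 0.109).

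SOL4 and GND2 lie near each other on chromosome VII, with 7 genes between them in the gene order of assembly R64. Their profiles were also alike: among 6125 genes with values on all 6 arrays, GND2 was the gene with the second smallest Euclidean distance to SOL4 over the 6 log2 ratios, at 0.39, after YLR252W at 0.31 and before PIR3 at 0.45. The genes nearest to GND2 were TSL1 at 0.30, YLR252W at 0.31 and SOL4 at 0.39. Nearest to NQM1 were STF2 at 0.77, PHM8 at 1.00 and ADH2 at 1.10.

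The genes between SOL4 and GND2 were looked up after the values of the pair were seen. Over these 7 the median log2 ratio was 0.05 in TBP-F207L (range -1.12 to 0.80), -0.01 in TBP-Y185C (-0.72 to 0.79) and 0.15 in mot1-14 (-0.55 to 0.92). None reached the level of SOL4 or GND2 in any mutant. RIE1 was the only one higher than WT by 0.5 or more in all 3, at 0.59 in TBP-F207L, 0.79 in TBP-Y185C and 0.92 in mot1-14. ENO1, which encodes an enolase of glycolysis, fell by 1.12 in TBP-F207L and was at -0.11 in TBP-Y185C and 0.25 in mot1-14. GCN5, which encodes a histone acetyltransferase, was lower in all 3, at -0.59 in TBP-F207L, -0.72 in TBP-Y185C and -0.55 in mot1-14.

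**Figure D4:**
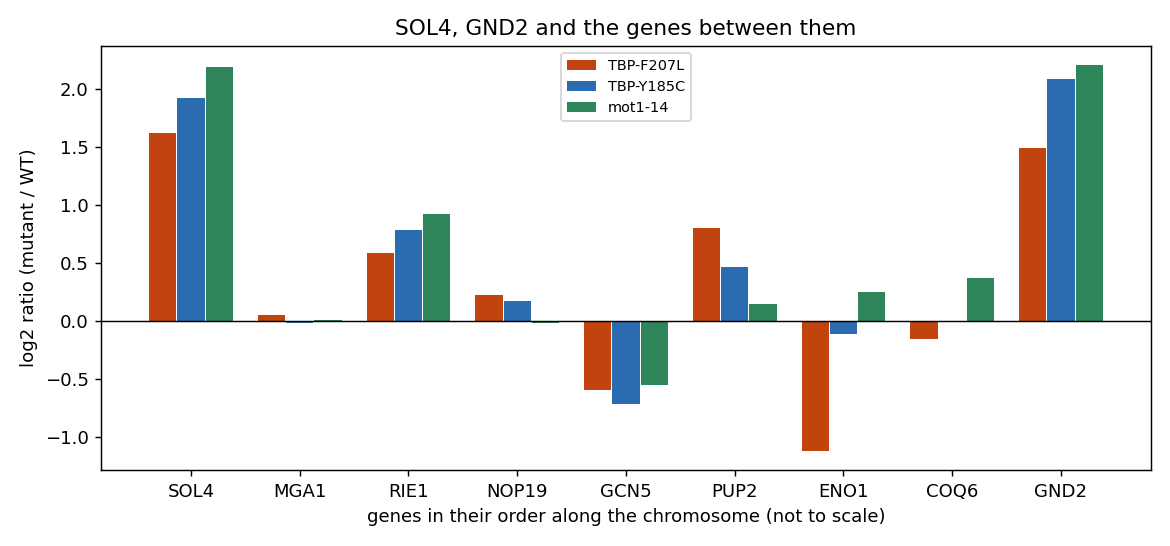
Fitted log2 ratio (mutant over WT, vertical axis) of SOL4, GND2 and the 7 genes between them, in their order along the chromosome and not to scale. Bars are the 3 mutants. SOL4 and GND2 reach 1.49 to 2.20, and the genes between them lie from -1.12 to 0.92.

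The other genes of the pathway and of its entry and exits, listed together with SOL1 and SOL2, gave more lower than higher values. PRS1 to PRS5, taken up below, are among them. Of these 14 genes, 4 were higher and 8 lower in TBP-F207L (40.3% and 38.8% of all probes), 5 higher and 7 lower in TBP-Y185C (41% and 38.8%), and 4 higher and 8 lower in mot1-14 (37.2% and 34.9%). The 12 of 14 that passed in each mutant are near the 79.1%, 79.7% and 72.1% of all probes that did in TBP-F207L, TBP-Y185C and mot1-14. Their median log2 ratio was -0.34 in TBP-F207L, -0.13 in TBP-Y185C and -0.11 in mot1-14, against a median within 0.0059 of 0 over all probes. Without array 1 of TBP-F207L 2 were higher in that strain, and without array 1 of TBP-Y185C 2 in TBP-Y185C. RPE1, the epimerase that acts beside Rki1, was at -0.86 and -0.91 in TBP-F207L, -0.46 and -0.47 in TBP-Y185C, and 0.16 and 0.17 in mot1-14, and it passed in all 3. As with TAL1, its bypass values lie below 0 and its mot1-14 values above. RBK1, which encodes ribokinase, rose 1.08 in TBP-F207L, 0.94 in TBP-Y185C and 0.61 in mot1-14 on the log2 scale. XKS1, the xylulokinase gene, rose 0.29, 0.22 and 0.52 in the same mutants.

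PRS1 to PRS5 encode the enzymes that turn ribose 5-phosphate into phosphoribosyl pyrophosphate for nucleotide synthesis, a group picked out after its values were seen. All 5 were lower in each mutant, where 38.8%, 38.8% and 34.9% of all probes were in TBP-F207L, TBP-Y185C and mot1-14. The medians of the 5 were -0.55 in TBP-F207L (range -0.84 to -0.37), -0.51 in TBP-Y185C (-0.52 to -0.23) and -0.27 in mot1-14 (-0.36 to -0.12). PRS5 was at -0.84 in TBP-F207L and -0.52 in TBP-Y185C, and PRS4 at -0.55 and -0.51 in these strains. PRS1 was lower too, at -0.37 in TBP-F207L, -0.51 in TBP-Y185C and -0.27 in mot1-14. ARO3, whose enzyme takes erythrose 4-phosphate into aromatic amino acid synthesis, was at -0.62 in TBP-F207L, -0.46 in TBP-Y185C and -0.45 in mot1-14.

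Of 8 genes for other enzymes that supply NADPH or NADP, 5 were higher and 3 lower in each bypass strain, and 3 higher and 3 lower in mot1-14, with medians of 0.23 in TBP-F207L, 0.24 in TBP-Y185C and 0.08 in mot1-14. Those that fell in all 3 mutants, IDP1, MAE1 and POS5, encode mitochondrial enzymes. IDP1, for the mitochondrial NADP-dependent isocitrate dehydrogenase, fell by 1.00 in TBP-F207L, 1.00 in TBP-Y185C and 0.485 in mot1-14. MAE1, for the mitochondrial malic enzyme, was at -0.56, -0.78 and -0.47 in the same mutants. Among the cytosolic enzymes, IDP2, the isocitrate dehydrogenase paralog of IDP1, rose 0.62 in TBP-F207L, 0.76 in TBP-Y185C and 0.57 in mot1-14. ALD6, for the acetaldehyde dehydrogenase that makes NADPH beside Zwf1, rose 0.36, 0.46 and 0.51 in these mutants, and UTR1, for an NAD kinase, rose 0.60, 0.69 and 0.21. These counts too stand beside 79.1%, 79.7% and 72.1% of all probes that passed in TBP-F207L, TBP-Y185C and mot1-14. By direction, 40.3% of all probes were higher and 38.8% lower in TBP-F207L, 41% and 38.8% in TBP-Y185C, and 37.2% and 34.9% in mot1-14.

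Calls were also counted for 4 genes of transcription factors known to act on pathway or stress genes. In either direction 79.1%, 79.7% and 72.1% of all probes passed in TBP-F207L, TBP-Y185C and mot1-14. Of the 4 genes, 2 were higher and 2 lower in TBP-F207L (40.3% and 38.8% of all probes). In TBP-Y185C 2 of them were higher and 1 lower (41% and 38.8%), and in mot1-14 1 higher and 3 lower (37.2% and 34.9%). Those lower in TBP-F207L were 0 without its array 1, and 1 without its array 2 or without either TBP-Y185C array. MSN4, for a general stress factor, rose 0.44 in TBP-F207L, 0.65 in TBP-Y185C and 0.99 in mot1-14. Its paralog MSN2 was at -0.10 in TBP-F207L, -0.06 in TBP-Y185C and -0.35 in mot1-14, of which the TBP-Y185C value did not pass. STB5, for a factor known to act on pathway genes under oxidant stress, was at -0.12, -0.25 and -0.22 in TBP-F207L, TBP-Y185C and mot1-14. YAP1, for the main factor of the oxidant response, rose 0.61 in TBP-F207L and 0.38 in TBP-Y185C and was at -0.20 in mot1-14, where it passed as lower.

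**Figure D5:**
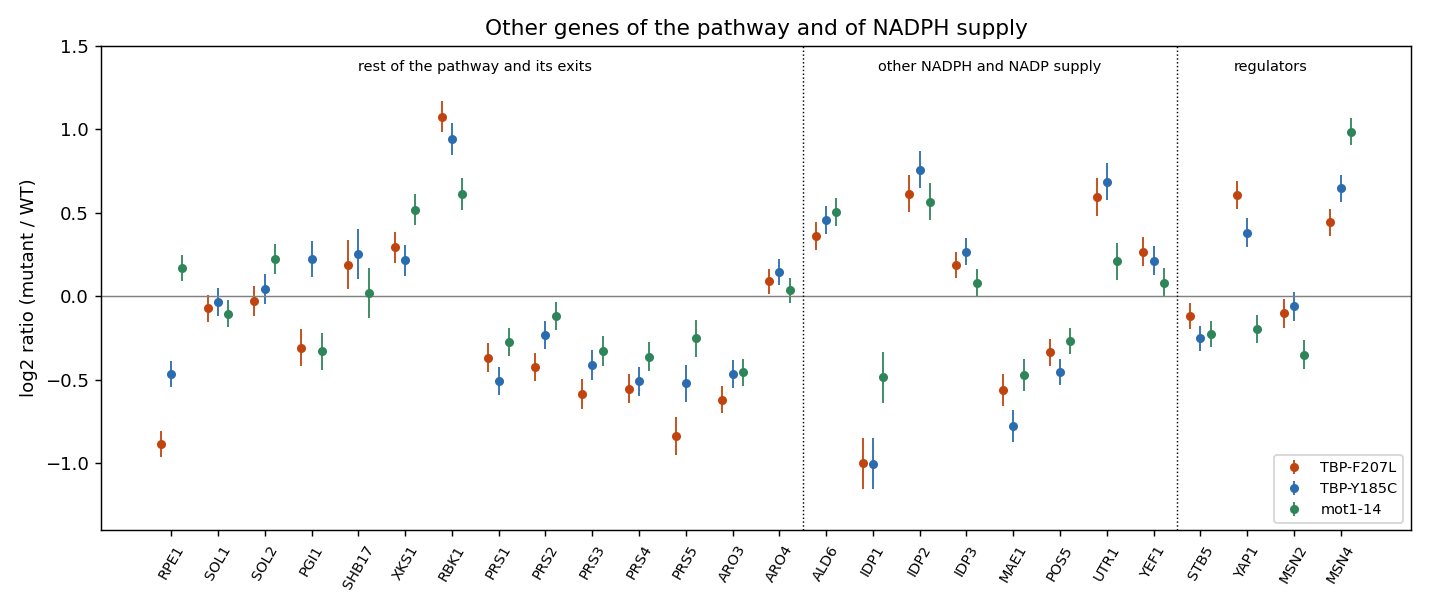
Fitted log2 ratio (mutant over WT, vertical axis) of 14 genes, 8 genes of NADPH and NADP supply and 4 regulator genes in the 3 mutants, with bars for 95% intervals. The 14 are other genes of the pathway and of its entry and exits, with SOL1 and SOL2. PRS1 to PRS5 lie below 0 in every mutant, IDP1 and MAE1 lie below 0 and IDP2 above it, and RPE1 and YAP1 change sides between the bypass strains and mot1-14.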

How the data were processed

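Per the labels, amplification and Cy3 or Cy5 labelling started from 500 ng of total RNA. Agilent Feature Extraction 7.5.1 wrote the deposited scanner files, per the file headers, which give the mean and local background intensity of each spot without subtraction. They also hold processed intensity values, the log10 ratio of red over green and its p-value per spot, per the file headers. When set against the scanner files, the deposited series table of the authors matched log2 of red over green (r = 0.9989 to 0.9998 per array), with column medians of -0.0258, 0.0188, -0.0227, 0.0247, -0.0034 and 0.0203, so it is not centred and not turned to mutant over WT.

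From the mean signals, background was removed by normexp (offset 50), followed by loess on each array with control spots at weight 0 (limma 3.58.1, R 4.3.3). Spots marked as outliers were left out, up to 3.215% on an array, spots of a probe were averaged, and 4 of the 10 genes had 2 spots. The spots of a gene differed by 0.001 to 0.19 (log2) on an array. No value of the 10 genes was missing or saturated, and 6126 probes had values on all 6 arrays. One limma model over 6 arrays held a coefficient per mutant, signed by dye, and a dye intercept per probe, with Benjamini-Hochberg adjustment over all probes at 0.05. It had 2 residual and 4.81 prior degrees of freedom. Pair differences were fitted as 4 added rows (6236 in all), scaled to the size of a probe's ratio and back. A gene not well above background in WT on both arrays has only a bound. The number of arrays limits the precision.

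The 10 genes, the lists and the rule for named genes were chosen with earlier results of these data known. The rule named the 10 genes, MOT1, SPT15, list genes that passed at 0.5 or more (log2), up to 4 a list and mutant, and the 3 nearest profiles of SOL4, GND2, TKL2 and NQM1. Those of TKL2 are not reported because its WT signal was not well above background on 4 of 6 arrays. Outside the rule, MSN2, STB5, POS5, PRS2, PRS3 and the genes between SOL4 and GND2 were added afterwards. Of the array's names, 5756 matched assembly R64, used for symbols and gene order, and 500 did not. The model was run on simulated data only to check the code. Those data had independent noise and far fewer changed genes than were called here. Alternatives were other background corrections, median centring, the deposited log2 values, other dim-probe filters, no dye term, each array left out, and the scanner's p-values.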

Additional observations from a re-analysis of the deposited data

Results flagged for a closer look

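TAL1 was lower than WT in both bypass strains and higher than WT in mot1-14, and the differences themselves passed the test in the limma model, at -0.82 (log2) for TBP-F207L minus mot1-14 (adjusted p = 7.5e-05) and -0.49 for TBP-Y185C minus mot1-14 (adjusted p = 0.000820). RPE1 had the same arrangement of signs, at -1.05 for TBP-F207L minus mot1-14 (adjusted p = 1.4e-05) and -0.63 for TBP-Y185C minus mot1-14 (adjusted p = 0.000149). YAP1 ran the other way, higher in the bypass strains and lower in mot1-14, at 0.80 for TBP-F207L minus mot1-14 (adjusted p = 4.9e-05) and 0.58 for TBP-Y185C minus mot1-14 (adjusted p = 0.000264). Some of the values over WT were small: TAL1 at -0.19 in TBP-Y185C, RPE1 at 0.17 and YAP1 at -0.20 in mot1-14. The median size of a change over all probes was larger, at 0.29 in TBP-Y185C and 0.23 in mot1-14. The TAL1 call in TBP-Y185C was lost without the dye term in the limma model (adjusted p = 0.0503).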

How the results depend on the processing

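The differences of the SOL, GND and NQM1 with TAL1 pairs kept their direction under all 42 alternatives run for each pair. They passed in those that kept both arrays of the mutant, and fits with 1 of its arrays are read for direction only. Of 417 values of the 10 genes over WT 410 kept direction and call. Several of these alternatives could not move a fitted value: other dim-probe filters, no dye term, or an array of another mutant left out. The series table nearly repeats the deposited log ratios. With the deposited log ratios, these 3 pair differences were larger than in the main fit. SOL4 over SOL3 was 1.05 in TBP-F207L, 1.49 in TBP-Y185C and 1.565 in mot1-14. In the same mutants GND2 over GND1 was 0.70, 1.23 and 1.54, and NQM1 over TAL1 was 3.48, 3.60 and 2.28. How a pair's excess differs between mutants was not run under the alternatives. TKL2 minus TKL1 did not keep its direction and call. In TBP-F207L it was 0.80 with offset 0, 1.53 with the deposited log ratios and 1.46 with the series table (-0.09 as reported), and -0.24 to 0.0482 with an array left out. In TBP-Y185C it was 1.67, 2.60 and 2.57 (0.03 as reported). In mot1-14 it was 0.61, 1.24 and 1.22 (-0.18 as reported), -0.10 without background correction (-0.0976) or with median centring (-0.0975), -0.18 without the dye term, no longer passing, and -0.19 to -0.16 with an array left out. Between TBP-F207L and mot1-14, TKL2 changed sign under median centring (-0.12). Of 417 values between mutants, 52 lost and 4 gained a call. Genes lower in TBP-Y185C were 1 without the dye term and 1 to 2 with an array left out. By the scanner's p-values under 0.01 on both arrays, 1, 1 and 0 of the 10 were lower in TBP-F207L, TBP-Y185C and mot1-14, and 6, 8 and 6 higher. Among the 14 pathway genes, those higher in TBP-Y185C were 3 with median centring and 2 without the dye term (2 to 5 with an array left out). In TBP-F207L 2 were higher with offset 0, median centring, the deposited values or no dye term (2 to 3 with an array left out). Of the NADPH genes, 5 were higher in mot1-14 with offset 0, and 3 in each bypass strain with median centring. Regulator genes lower in TBP-Y185C were 2 with the deposited values, and in TBP-F207L 1 without background correction or with offset 0, and 0 with median centring or no dye term (0 to 2 with an array left out). Apart from the effect of the offset on dim spots, the cause of these moves was not tested. A slide block was not run because each slide holds 1 mutant, and the strict filter gave no TKL2 value. Mutant and WT were compared within each array. No pairing of arrays across mutants was possible because the labels give no replicate numbers.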
